A study of Mus musculus with 12 samples.

Results

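The protein folding and ER stress genes described here are 36 genes chosen by name, and all 36 were found among the 27998 gene identifiers of the deposited matrices. Of these, 28 encode proteins of the endoplasmic reticulum (ER) or of its stress response and 8 encode cytosolic heat shock proteins. The ER genes comprised 9 coding for Hspa5, Hsp90b1 and the cofactors that work with them, 2 lectin chaperones, 4 disulfide isomerases, 2 prolyl isomerases, 2 translocon subunits, 5 sensors and transcription factors, 2 feedback regulators and 2 genes of ER-associated degradation. They were found by symbol, and the list was drawn up with earlier results of these data known.

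The data are single-cell RNA counts from CD45- cells of digested hind limb joints of WT C57BL/6 mice, which the study describes as males of 8 to 10 weeks. Arthritis was serum transfer-induced (STIA), by 100 µl of arthritogenic serum of KRN (K/BxN) mice given intravenously. The 12 libraries carry 4 labels with 3 libraries each, which are rest at day 0, peak from day 7 to day 9, resolving on day 15, and lastly resolved on day 22. Each library pooled cells of 3 animals. Tissue was digested with collagenase for 40 min at 37 °C and again for 20 min before sorting, and every library, rest included, passed through these steps. A version 2 kit that reads the 3′ ends of transcripts was used, so the spliced and unspliced forms of Xbp1 could not be told apart.

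Proteins bound for secretion enter the ER through the Sec61 channel and fold there with the help of the chaperone BiP (Hspa5), lectin chaperones and disulfide isomerases. Collagen needs prolyl hydroxylation and prolyl isomerisation in the ER before its chains can form a triple helix, and fibroblasts, tendon cells, bone cells and cartilage cells secrete it in bulk. When unfolded proteins accumulate, the sensors Ire1 (Ern1), Perk and Atf6 raise chaperone genes through Xbp1, Atf6 and Atf4, a programme called the unfolded protein response. The cytosolic heat shock response is separate, and tissue digestion at body temperature is known to raise its genes together with immediate early genes such as Fos.

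After the limits of the study on genes and UMIs (unique molecular identifiers, each counting 1 captured RNA) per cell, 20060 of 21042 deposited cells remained, with 1227 to 2747 cells and 7468914 to 16566202 UMIs per library. The median deposited cell had 5358 UMIs whichever library it came from. The libraries did not group by their labels. Barcodes carry a suffix from 1 to 12, and libraries labelled rest have suffixes 1, 5 and 9, peak 2, 6 and 10, resolving 3, 7 and 11, and resolved 4, 8 and 12. By the summed UMIs of fibroblast-like cells over 11662 genes, the nearest library lay in the same run of 3 consecutive suffixes for 11 of 12 libraries, and had the same label for 1 of 12. What the runs of suffixes stand for is not given in the sources used here, so they are reported as an order of the libraries in the files and not as stages. Whether each stage label is attached to the right library cannot be told from the files used here, and every value given by stage rests on those labels. No barcode was shared between libraries (0).

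Clusters were named from marker genes, with the 36 members left out of the clustering. Fibroblast-like cells, with Dcn in 99.7% and Pdgfra in 53.1% of cells, made up 10822 cells (53.9%) in 9 clusters. The other types compared were tenocyte-like (2902 cells, Thbs4 in 86.6%), vascular endothelial-like (1768, Pecam1 in 94%), osteoblast-like (1305, Bglap in 91.9%), chondrocyte-like (876, Acan in 66.1%), proliferating (678, Mki67 in 67.4%), perivascular-like (657, Rgs5 in 83.9%), muscle-like (260, Myod1 in 47.7%) and lymphatic endothelial-like (186, Prox1 in 67.7%). The leukocyte gene Ptprc had a UMI in 0.028% of fibroblast-like cells, after a sort that kept CD45- cells. Dcn also had a UMI in 59.6% of vascular endothelial-like and 52.7% of muscle-like cells. Whether this came from free RNA, doublets or the cells themselves was not tested, and low levels of fibroblast genes in other types may include background.

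Reference promoters show which members carry the sequence through which the unfolded protein response acts. The ER stress response element (ERSE), which is CCAAT and CCACG with any 9 bases between them on either strand, is the site bound by NF-Y with Atf6 or Xbp1. In windows of 250 bases before to 50 after RefSeq transcript starts (GRCm38.p6), it was present in 7 of 24 ER members with a window and in 0 of 5 cytosolic members, against 39 of all 32851 windows (0.1187%). Windows were found for 29 of 36 members, and none for Atf6, Hyou1, Manf, Hsp90aa1, Fkbp10, Hsp90ab1 and Hspa8. The upstream 250 bases of Hspa5 and Hsp90b1, the ER members of the Hsp70 and Hsp90 families, are given 5′ to 3′ on the strand of the gene, with the fixed bases of the element in capitals.
Hspa5, plus strand, chr2:34771840-34772089: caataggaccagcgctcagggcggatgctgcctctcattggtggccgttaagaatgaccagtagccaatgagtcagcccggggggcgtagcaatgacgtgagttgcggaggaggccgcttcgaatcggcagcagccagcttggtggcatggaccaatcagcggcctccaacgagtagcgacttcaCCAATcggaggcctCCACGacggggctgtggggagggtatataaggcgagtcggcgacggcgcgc
Hsp90b1, minus strand, chr10:86705445-86705694: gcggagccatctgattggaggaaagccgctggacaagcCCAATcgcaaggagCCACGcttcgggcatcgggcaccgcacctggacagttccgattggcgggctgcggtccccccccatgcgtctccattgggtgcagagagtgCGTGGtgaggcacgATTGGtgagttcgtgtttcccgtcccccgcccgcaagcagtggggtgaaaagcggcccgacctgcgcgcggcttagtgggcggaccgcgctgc
Hspa5 held 1 element 65 bases upstream of the start, and Hsp90b1 held 2, at 212 bases and, on the opposite strand, at 107 bases. The elements of the other members are written in their own direction, with the same bases in capitals, to show how little besides those bases they share.
Calr, chr8:84847075-84847093: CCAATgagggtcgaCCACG
Canx, chr11:50325800-50325818: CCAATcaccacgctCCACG
Creld2, chr15:88819520-88819538: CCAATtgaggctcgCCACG
Dnajc3, chr14:118937827-118937845: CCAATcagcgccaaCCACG
Pdia6, chr12:17266491-17266509: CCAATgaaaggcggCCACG
An unfolded protein response element, TGACGTGG, was in 0 member windows and in 222 of all windows (0.6758%). A heat shock element, GAA, TTC and GAA with any 2 bases between each, was in the window of Hsph1 alone among members, as GAActTTCcaGAA at chr5:149636288-149636300, and in 198 of all windows (0.6027%). The amino acid response element TGATGNAA, bound by Atf4 with a partner, was in the windows of Trib3 and Herpud1 and in 1304 of all windows (3.9694%). These are matches of letters, not measured binding, and a window without a match says only that these letters were not in it.

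Across cell types, the isomerases Fkbp11, Fkbp10, P4hb and Pdia3, the lectin Calr and the channel subunit Sec61b were lower than in fibroblast-like cells in all 4 of vascular endothelial-like, lymphatic endothelial-like, perivascular-like and muscle-like cells. The stress regulator Ppp1r15a was higher in the same 4 types, and the heat shock gene Hspa1a in 3 of them. UMIs were summed per library and type and compared with fibroblast-like cells of the same libraries by the quasi-likelihood F test of edgeR, and p-values were adjusted by the Benjamini-Hochberg method. To be called, a gene needed an adjusted p under 0.05 and an absolute log2 fold change above 0.5. Of the members, 34 of 36 passed the filter on low counts, all but Hyou1 and Ern1. Osteoblast-like cells had 4 members higher and 0 lower, where 28.7% of all 9396 genes tested were called, 13.4% higher and 15.3% lower. Tenocyte-like cells had 2 higher and 0 lower (background 14.4%, as 6.31% higher and 8.1% lower). Chondrocyte-like cells had 12 higher and 2 lower (37.1%, as 18.3% and 18.8%), with a median member log2 fold change of 0.40 against 0.01 over all genes. With RLE size factors in place of TMM the chondrocyte-like split was 8 higher and 3 lower, and in DESeq2 7 and 3. Proliferating cells had 6 higher and 7 lower (26.5%, as 11.6% and 14.9%), or 4 and 8 with RLE size factors and 3 and 8 in DESeq2. Vascular endothelial-like cells had 5 higher and 15 lower (54.2%, as 27.9% and 26.3%) and perivascular-like cells 5 and 15 (40.8%, as 19.4% and 21.4%). Lymphatic endothelial-like cells had 2 and 21 (40%, as 13.9% and 26.1%) and muscle-like cells 11 and 9 (39.8%, as 12.2% and 27.6%). The higher counts of osteoblast-like and tenocyte-like cells and the lower count of muscle-like cells were close to the shares over all genes. The median over all genes was -0.24 in lymphatic endothelial-like and -0.43 in muscle-like cells, and member values there are to be read against those shifts. The members' own medians were -0.37 in vascular endothelial-like, -0.42 in perivascular-like, -0.81 in lymphatic endothelial-like and -0.11 in muscle-like cells.

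**Figure D1:**
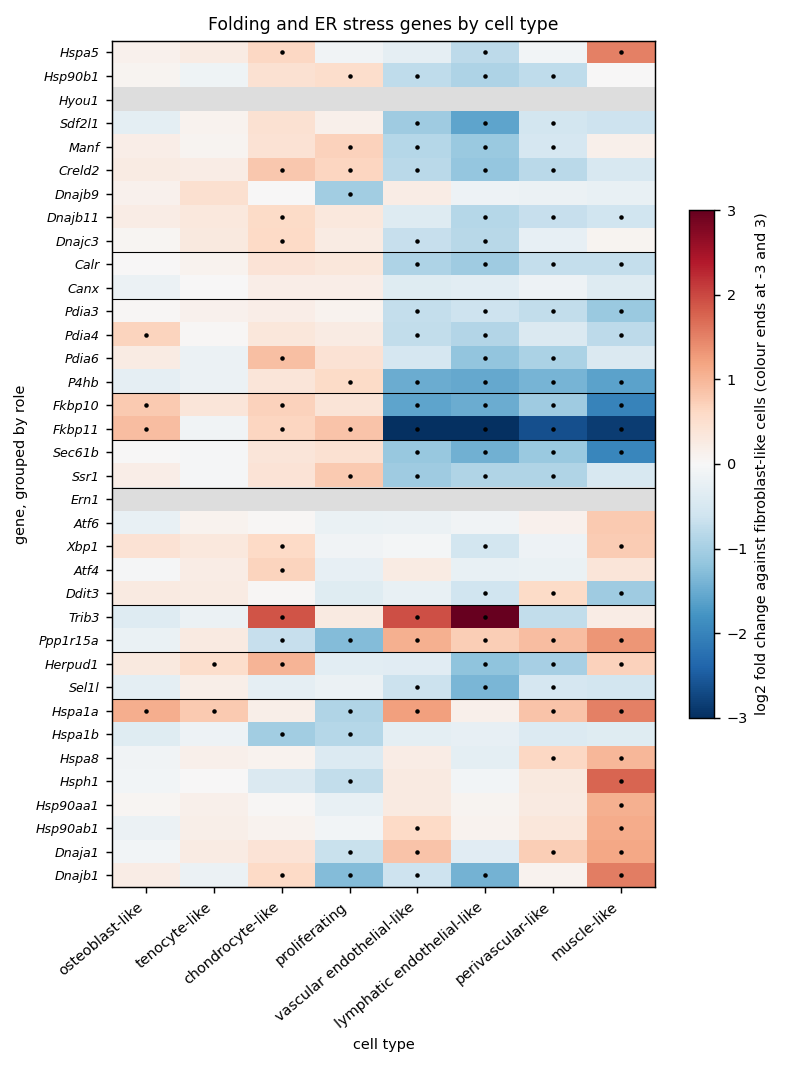
Log2 fold change of each of the 36 members (rows, grouped by role with lines between roles) in 8 cell types (columns) against fibroblast-like cells, with red higher, blue lower and dots marking called genes. Fkbp11 was lowest in the 4 columns of vascular endothelial, lymphatic endothelial, perivascular and muscle-like cells, where the cytosolic rows at the bottom include red cells, and grey rows (Hyou1, Ern1) were not tested.

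Of the prolyl isomerases, Fkbp11 had the widest range of log2 fold changes over the 8 types of any member. Fkbp11 (chr15:98724366-98728198, minus strand, GRCm38), an ER-membrane isomerase abundant in secretory cells, had 26.5, 79.1 and 212 CPM (its UMIs in a sum, scaled to 1000000 in all; lowest, median and highest of 12 libraries) in fibroblast-like cells. In vascular endothelial-like cells the same values were 2.5, 7.1 and 21.2, so the ranges did not overlap, and 12 of 12 libraries were lower (log2 fold change -3.33 ± 0.29 SE, adjusted p = 5.6e-18, edgeR). It was also lower in lymphatic endothelial-like (-4.58 ± 0.68), perivascular-like (-2.64 ± 0.33) and muscle-like cells (-2.85 ± 0.70). The lymphatic endothelial-like sums held 4 UMIs of Fkbp11 in all and the muscle-like sums 6, so these 2 values are imprecise. It was higher in osteoblast-like cells (0.93 ± 0.20, 77.4 to 242 CPM, 10 of 12 libraries) and in proliferating cells (0.85 ± 0.23, 174 to 283, 6 of 6 libraries). In chondrocyte-like cells the fit called it higher (0.65 ± 0.21), although the level exceeded that of fibroblast-like cells in 5 of 12 libraries. Fkbp10, an isomerase that acts on procollagen, was higher in osteoblast-like (0.79 ± 0.18) and chondrocyte-like cells (0.68 ± 0.18) and lower in the 4 types in which Fkbp11 was low, down to -2.01 ± 0.35 in muscle-like cells.

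Among disulfide isomerases, P4hb (chr11:120560298-120573253, minus strand), which is also a subunit of collagen prolyl 4-hydroxylase, was lower in the same 4 types. Its median level was 338 CPM in fibroblast-like cells (203 to 796) and 149.9 in vascular endothelial-like cells (74.9 to 296), with 12 of 12 libraries lower (-1.50 ± 0.15, adjusted p = 3.4e-15, edgeR). It was lower in lymphatic endothelial-like (-1.53), perivascular-like (-1.39) and muscle-like cells (-1.60), and higher in proliferating cells (0.57 ± 0.18, 6 of 6 libraries). Pdia3, the partner of the lectin chaperones, was lower in these 4 types and higher in 0. Pdia4 was higher in osteoblast-like cells, in 12 of 12 libraries (0.67 ± 0.11, adjusted p = 8.9e-08, edgeR), and Pdia6 in chondrocyte-like cells (0.91 ± 0.16). Of the lectin chaperones, Calr was lower in the same 4 types, by 0.70 to 1.08 on the log2 scale, and Canx was called in 0 of 8.

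The translocon subunits Sec61b, part of the protein-conducting channel, and Ssr1, of the translocon-associated complex, were both lower in vascular endothelial-like cells (-1.13 ± 0.12 and -1.06 ± 0.12, each in 12 of 12 libraries). Sec61b was lowest in muscle-like cells, at 70.8 to 190.5 CPM in 8 libraries against 303 to 845 in fibroblast-like cells (-1.95 ± 0.19, adjusted p = 8.2e-15, edgeR). Ssr1 was higher in proliferating cells (0.79 ± 0.14, 6 of 6 libraries).

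Hspa5, the ER Hsp70 and a standard readout of ER stress, was called higher in 2 types and lower in 1. Muscle-like cells had 1900.4, 2956 and 4577 CPM (lowest, median and highest of 8 libraries), against 730.3, 969 and 1292 in fibroblast-like cells. Every muscle-like sum was above every fibroblast-like sum, and the log2 fold change was 1.51 ± 0.12 (adjusted p = 7.4e-19, edgeR). In chondrocyte-like cells Hspa5 was higher in 11 of 12 libraries (0.62 ± 0.11), and in lymphatic endothelial-like cells it was lower (-0.79 ± 0.12). Of its partners, Hsp90b1, Sdf2l1, Manf and Creld2 were lower in vascular endothelial-like, lymphatic endothelial-like and perivascular-like cells, with Sdf2l1, a cofactor of the Hspa5 cycle, at -1.58 ± 0.31 in the lymphatic type. In muscle-like cells none of these 4 was called. Dnajb11 and Dnajc3, co-chaperones that deliver substrates to Hspa5, were higher in chondrocyte-like cells (0.58 and 0.60), and Creld2 was higher there in 12 of 12 libraries (0.80 ± 0.11).

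Of the sensors and transcription factors, Atf6 was called in 0 of 8 types. Xbp1 was higher in chondrocyte-like (0.59 ± 0.10) and muscle-like cells (0.77 ± 0.13), and the fit called it lower in lymphatic endothelial-like cells (-0.55 ± 0.14) although 6 of 10 libraries had a higher CPM there. Atf4, the transcription factor translated under stress, was higher in chondrocyte-like cells (0.66 ± 0.11). Ddit3, the stress factor Chop, was higher in perivascular-like cells (0.58 ± 0.15) and lower in muscle-like (-1.07 ± 0.30) and lymphatic endothelial-like cells (-0.61 ± 0.25).

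Both feedback regulators were higher in both endothelial types. Trib3, a pseudokinase induced by Atf4 and Ddit3, was near its detection limit in fibroblast-like cells, with 183 UMIs in all and a UMI in 1.52% of cells. Vascular endothelial-like cells had 4.7 to 26.2 CPM and were higher in 12 of 12 libraries (1.95 ± 0.30, adjusted p = 1.7e-08, edgeR). Lymphatic endothelial-like cells had a median of 39.8 from 25 UMIs, with 8 of 10 libraries above the fibroblast-like level (3.10 ± 0.50), and chondrocyte-like cells were called higher with 8 of 12 libraries above (1.88 ± 0.33). Ppp1r15a (chr7:45522916-45526268, minus strand), which directs a phosphatase to initiation factor 2 and is induced within minutes by many stimuli, had 451, 651 and 816 CPM in vascular endothelial-like cells and 164, 242 and 476 in fibroblast-like cells (1.08 ± 0.13, 12 of 12 libraries). It was also higher in muscle-like (1.31), perivascular-like (0.92) and lymphatic endothelial-like cells (0.75), and lower in proliferating (-1.30) and chondrocyte-like cells (-0.70). The summed immediate early genes averaged 23327 CPM in vascular endothelial-like, 22037 in muscle-like, 21099 in lymphatic endothelial-like, 15949 in perivascular-like, 13319 in chondrocyte-like and 7475 in proliferating cells, against 15913 in fibroblast-like cells. They thus moved with Ppp1r15a in these types other than the perivascular-like cells. They were also higher in osteoblast-like (20856) and tenocyte-like cells (20356), where Ppp1r15a was not called and was lower in 8 and 4 of 12 libraries. The part of digestion in these levels was not tested.

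Of the degradation genes, Herpud1, which binds the ubiquitin ligase complex of the ER membrane, was higher in tenocyte-like (0.54 ± 0.11), chondrocyte-like (1.01 ± 0.11, adjusted p = 1.0e-13, edgeR) and muscle-like cells (0.68 ± 0.15). It was lower in perivascular-like (-0.99) and lymphatic endothelial-like cells (-1.21). Sel1l, the adaptor of the same complex, was lower in both endothelial types and in perivascular-like cells and higher in 0 of 8.

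Cytosolic heat shock genes were highest in muscle-like cells, where 7 of 8 were called higher and 0 lower. Their summed level averaged 41164 ± 14425 CPM (SD, n = 8 libraries), against 13873 ± 1879.5 in fibroblast-like cells (n = 12). Hsph1, a nucleotide exchange factor of Hsp70, rose most there (1.74 ± 0.23), and Dnajb1, the co-chaperone induced by heat shock, ranged from 1416 to 11726 CPM (1.54 ± 0.27, higher in 7 of 8 libraries). Hspa1a (chr17:34969190-34972156, minus strand), the inducible cytosolic Hsp70, was higher in 5 of 8 types. It had 4874, 9663 and 15283 CPM in vascular endothelial-like cells and 1820.2, 3389 and 6679 in fibroblast-like cells, and was higher within 12 of 12 libraries although the ranges overlapped (1.22 ± 0.19). In osteoblast-like cells it was higher in 12 of 12 libraries too (1.08 ± 0.18). Hspa1b is nearly identical to Hspa1a, so how reads were divided between them is uncertain, and Hspa1b was called higher in 0 of 8 types. Proliferating cells had 5 cytosolic genes lower and 0 higher, with Dnajb1 at -1.30 ± 0.31. Hspa8, the constitutive form, was called only in perivascular-like (0.62) and muscle-like cells.

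Other genes of these pathways were counted from separate lists. Of all genes, 27.9% were higher and 26.3% lower in vascular endothelial-like cells, 18.3% and 18.8% in chondrocyte-like and 12.2% and 27.6% in muscle-like cells. Other ER chaperones and foldases were lower for 17 of 22 and higher for 0 in vascular endothelial-like cells, with Rcn3 and Txndc5 changing most, and translocation and early secretion genes for 21 of 32 and 0, led by Kdelr3 and Sec24d. In chondrocyte-like cells 9 of 22 other ER chaperones were higher and 0 lower, led by Tmx1 and the collagen chaperone Serpinh1. In muscle-like cells 23 of 29 other cytosolic and mitochondrial chaperones were higher and 1 lower, led by Stip1 and Hspb8. Collagens were lower for 17 of 25 and higher for 4 in vascular endothelial-like cells, whose summed collagen level averaged 2819.5 CPM against 25529.9 in fibroblast-like and 51544 in osteoblast-like cells.

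Within a named type the clusters were unequal. The 1078 vascular endothelial-like cells led by Timp4 and Aqp7 had 15146 CPM of Hspa1a and 3.2 of Fkbp11, while the 690 led by Selp had 5243 and 14.7, with all libraries pooled. Immediate early genes differed in the same direction, at 31319 and 18775. The chondrocyte-like cluster led by Col9a3 and Col2a1 had 187 CPM of Fkbp11 and 17.5 of Trib3, and the cluster led by Cytl1 and Clu had 45.5 and 3.6. The 2902 tenocyte-like cells held a cluster led by C1qtnf3, almost wholly from suffixes 7 to 9, with 147 of Fkbp11, and one led by Angptl7 and Kera with 35.0. Without the C1qtnf3 cluster, an alternative chosen after seeing the data, tenocyte-like cells had 3 members higher and 2 lower (background 17%, as 6.65% and 10.4%), with Fkbp11 at -0.74 ± 0.22 and P4hb at -0.51 ± 0.14.

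Over the 26 clusters, levels of some ER members rose with those of collagens and levels of other members with those of immediate early genes. Spearman's rho with the summed level of 25 collagens was 0.92 for Fkbp11, 0.86 for Fkbp10, 0.83 for Creld2, 0.82 for P4hb and 0.79 for Calr, and 0.22 for Hspa5. With the summed level of 20 immediate early genes it was 0.81 for Dnajb9, a co-chaperone that recruits Hspa5 to Ire1, 0.76 for Ppp1r15a, 0.72 for Ddit3 and 0.71 for Dnaja1. The sum of the 28 ER members had rho 0.64 with collagens and 0.07 with immediate early genes, and the sum of the 8 cytosolic members -0.07 and 0.65. Over the 9 fibroblast-like clusters alone, rho with collagens was 0.73 for Fkbp11, 0.77 for Fkbp10, 0.80 for Creld2 and 0.53 for P4hb. It was 0.78 for Calr, 0.50 for Hspa5 and 0.90 for Pdia4. With immediate early genes rho there was 0.73 for Dnajb9, 0.93 for Ppp1r15a, 0.88 for Ddit3, 0.40 for Dnaja1 and 0.87 for Hspa1a. The points share libraries and are scaled to a total, and some clusters are few cells, so these are descriptions of the clusters and carry no test.

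**Figure D2:**
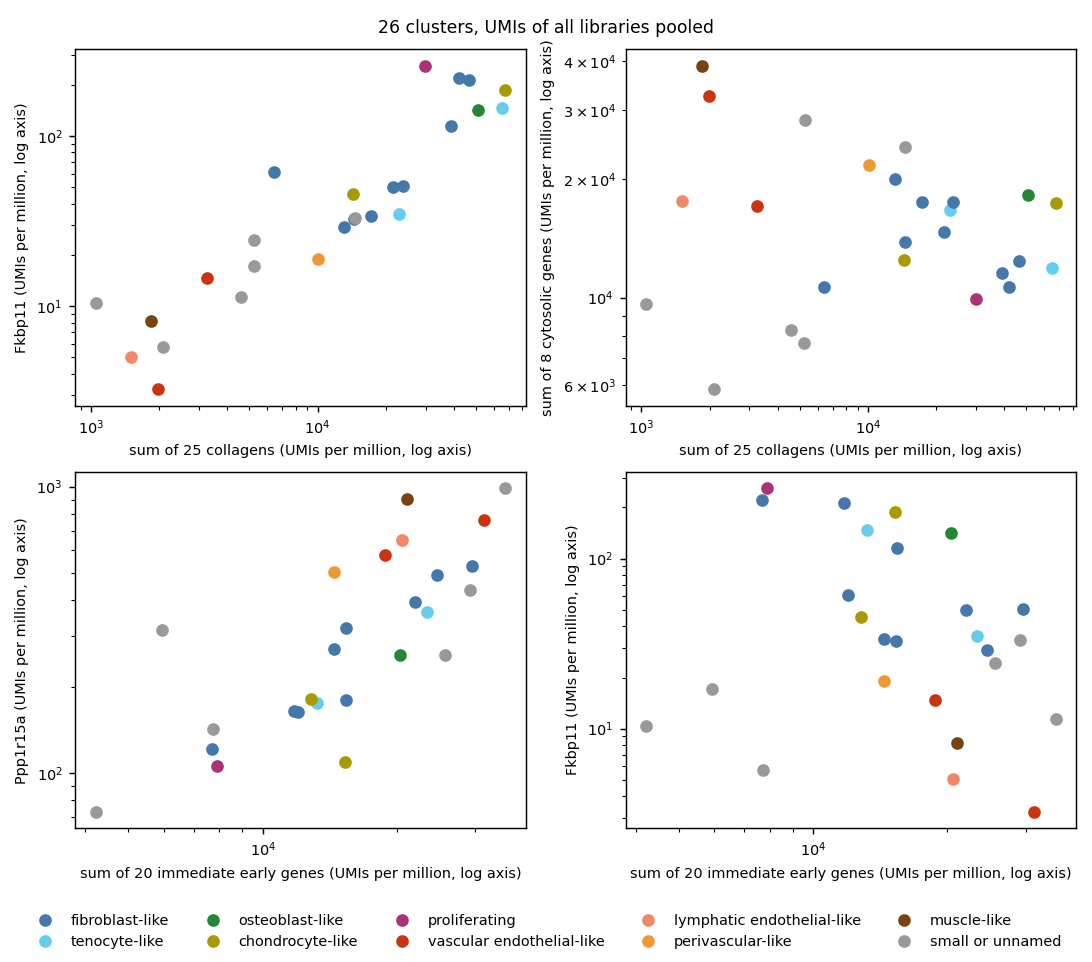
Each of the 26 clusters is a point, with all libraries pooled and both axes in CPM on log scales. Fkbp11 rises with the sum of 25 collagens (upper left, rho 0.92), the sum of the 8 cytosolic heat shock genes does not (upper right, rho -0.07), Ppp1r15a rises with the sum of 20 immediate early genes (lower left, rho 0.76), and Fkbp11 does not (lower right, rho -0.28).

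Lining-like fibroblasts, the 1127 cells of 1 cluster at the joint surface by their markers, were compared with the 1353 sublining-like cells of 1 cluster led by Stmn4, Dpp4 and Pi16. Of 34 members tested, all but Ern1 and Trib3, 5 were lower in lining-like cells and 0 higher, where 28.7% of 8331 genes were called, 14.2% higher and 14.5% lower. The lower count was thus close to the share over all genes, and the higher count below it. Ppp1r15a had 109.6, 159 and 207 CPM in lining-like and 130.3, 278 and 449 in sublining-like cells (lowest, median and highest of 12 libraries), and was lower in 11 of 12 libraries (-0.82 ± 0.10, adjusted p = 6.5e-08, edgeR). Hsph1 was lower in 12 of 12 libraries, at a median of 233 against 414 (-0.81 ± 0.10, adjusted p = 9.5e-08, edgeR). Hspa1b (-0.62 ± 0.11), Hsp90aa1 (-0.55 ± 0.10) and Ddit3 (-0.51 ± 0.13) completed the 5, and the ranges of all 5 overlapped between subsets. Immediate early genes averaged 11204 CPM in lining-like and 15444 in sublining-like cells, a difference in the same direction whose part in the result was not tested. P4hb missed the fold threshold on the higher side (0.49), in 12 of 12 libraries, at 407 against 289 on average. Collagens summed to 7097 in lining-like and 18189 in sublining-like cells on average, with 10 of 20 tested collagens lower and 3 higher. Other ER chaperones and foldases went the other way, with 7 of 22 higher in lining-like cells and 1 lower, led by Ero1l and Serpinh1.

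**Figure D3:**
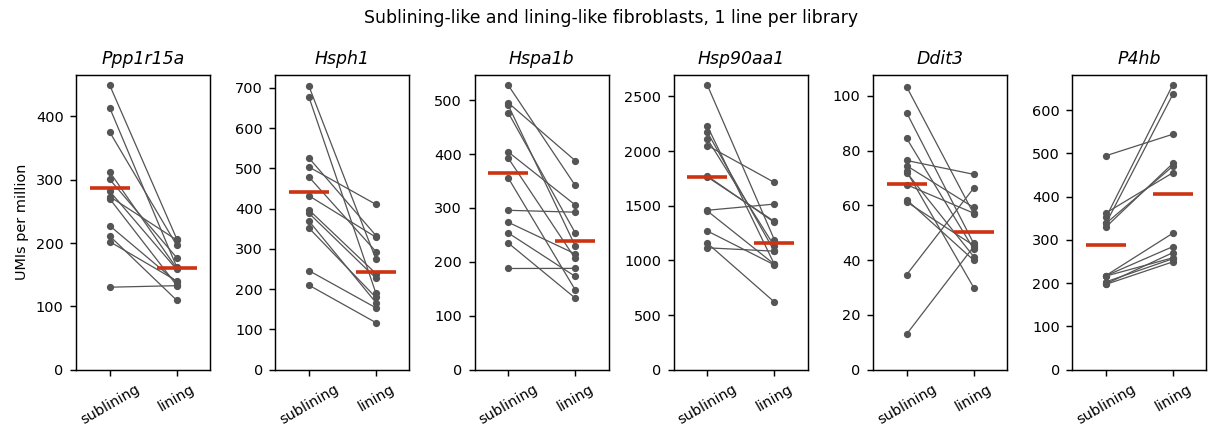
CPM of 6 members in sublining-like and lining-like fibroblasts, with 1 line for each of 12 libraries and red bars at the means, each panel on its own scale from 0. Lines for Ppp1r15a, Hsph1, Hspa1b, Hsp90aa1 and Ddit3 mostly fall towards lining-like cells, and those of P4hb rise.

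By stage label, with the doubt about the labels given above, no member was called in fibroblast-like cells. For peak, resolving and resolved against rest, edgeR called 0 of 36 members each, DESeq2 called 0 each, and 0 members had an unadjusted p under 0.05. The background was 0% of 11662 genes in each comparison, with 80, 104 and 83 genes at an unadjusted p under 0.05. Fkbp11 had the lowest log2 fold change for peak (-0.31 ± 0.89) and resolving (-0.90 ± 0.90), and Hspa1a for resolved (-0.70 ± 0.42). Libraries of 1 label differed widely. Fkbp11 had 32.7, 195 and 114 CPM in the 3 libraries labelled rest, and Hspa1a had 5602, 2191 and 4106. With the run of 3 suffixes added to the model as a block, which takes the differences between runs out of the spread, edgeR again called 0 members for each stage. Missing the threshold does not show that the labelled stages were alike.

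By run of barcode suffixes the members differed widely. In edgeR's F test over the 4 runs, 33 of 36 members had an adjusted p under 0.05, all but Atf6, Dnaja1 and Hsp90aa1, where 53.3% of 11662 genes did. Between suffixes 4 to 6 and 1 to 3, 14 members were higher and 5 lower (34.5% of genes called either way, 16.6% higher and 17.9% lower), with a median of 0.32 over members and -0.01 over all genes. All 14 that were higher code for ER proteins, and 3 of the 5 that were lower are cytosolic. Suffixes 7 to 9 had 9 higher and 3 lower than 1 to 3 (21.2%, as 11.1% and 10%), and suffixes 10 to 12 had 0 higher and 2 lower (1.17%, as 0.823% and 0.343%).

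Fkbp11 rose from 32.7, 40.3 and 51.1 CPM with suffixes 1, 2 and 3 to 193, 195 and 212 with suffixes 4, 5 and 6. It stood at 107, 132 and 114 with suffixes 7 to 9 and at 26.5, 31.1 and 28.7 with suffixes 10 to 12. The 4 runs did not overlap, and each run held 3 different stage labels. The log2 fold change of suffixes 4 to 6 over 1 to 3 was 2.37 ± 0.14 (adjusted p = 3.2e-08, edgeR). P4hb rose from 206, 208 and 239 to 778, 702 and 796 (1.89 ± 0.09, adjusted p = 6.4e-09, edgeR), and with suffixes 7 to 9 it stood between, at 438, 504 and 480.0. Fkbp10 (1.26 ± 0.09), Sec61b (1.41 ± 0.10), Ssr1 (1.04 ± 0.09) and Pdia6 (1.32 ± 0.09) rose with them. Collagens moved in the same direction, with sums of 15457 to 17206 CPM with suffixes 1 to 3, 35099 to 39577 with 4 to 6, 33993 to 41328 with 7 to 9 and 11252 to 12229.5 with 10 to 12. The collagen sums of suffixes 7 to 9 overlapped those of 4 to 6, whereas Fkbp11 and P4hb were lower (-0.82 ± 0.13 and -0.74 ± 0.09 for 7 to 9 against 4 to 6, in a comparison with 2 members higher and 14 lower where 14.8% of genes were called, 8.04% higher and 6.79% lower).

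**Figure D4:**
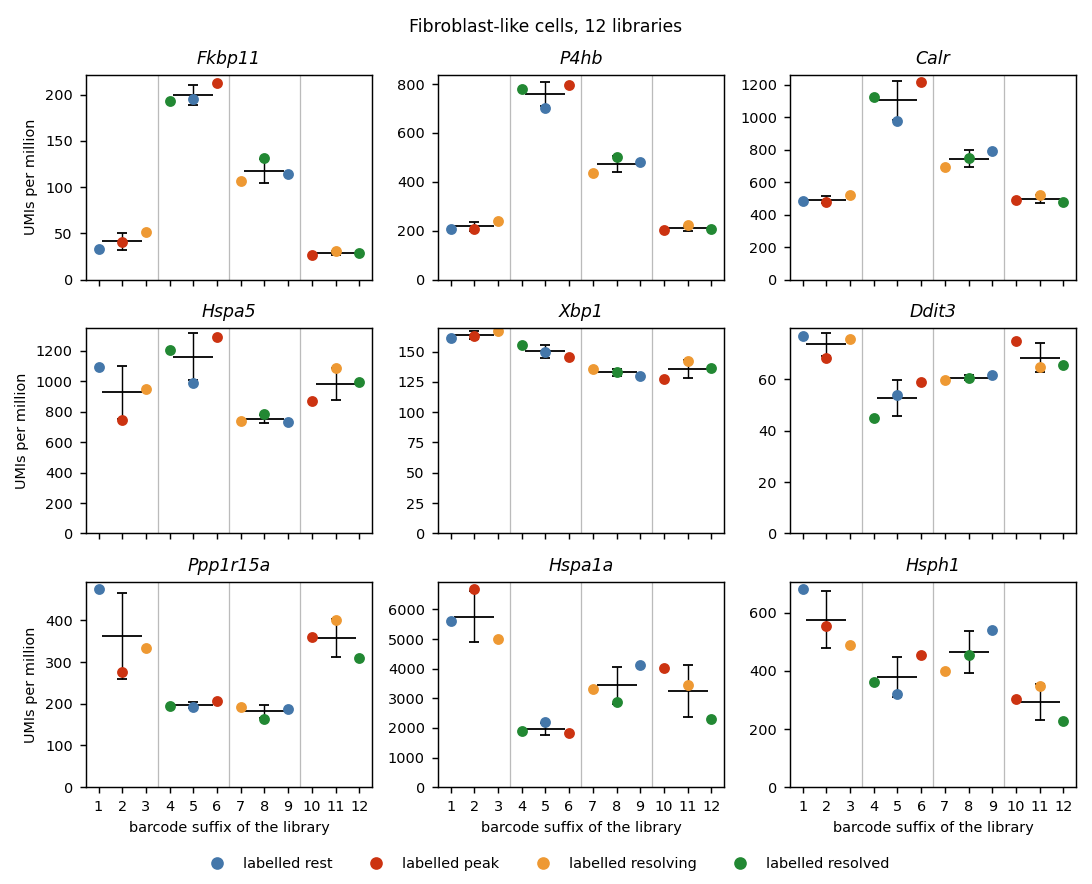
CPM of 9 members in fibroblast-like cells, 1 point per library placed by barcode suffix and coloured by stage label, with bars at the mean and SD of each run of 3 and each panel starting at 0. Fkbp11, P4hb and Calr are highest with suffixes 4 to 6, where Ppp1r15a and Hspa1a are low, and colours are mixed within each run.

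Among chaperones of the ER, Calr rose from 475 to 519 CPM with suffixes 1 to 3 to 977 to 1215 with 4 to 6 (1.25 ± 0.09). Manf (1.30 ± 0.10), Creld2 (1.22 ± 0.12), Hyou1 (1.07 ± 0.20), Hsp90b1 (0.87 ± 0.11) and Sdf2l1 (0.64 ± 0.12), several of them known targets of the unfolded protein response, rose too. Hspa5 was 1092, 744 and 948 with suffixes 1 to 3 and 1209, 989 and 1292 with 4 to 6, and at 0.42 ± 0.12 it missed the fold threshold. Xbp1, at 161 to 167 and 145 to 156, was not called (-0.03). Of the 7 members with an ER stress response element, shown above for Hspa5 and Hsp90b1, 4 were called higher, and the 7 log2 fold changes ran from 0.28 to 1.32. Fkbp11, P4hb and Sec61b rose more than any of these 7, and no element was found in their windows. Whether the element goes with a rise was not tested. Ddit3 was below the other libraries in all 3 of suffixes 4 to 6 (45.1, 54.0 and 59.0, against 59.9 or more elsewhere) without passing the fold threshold (-0.38).

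The genes that were lower with suffixes 4 to 6 were Hspa1a, Hspa1b, Ppp1r15a, Herpud1 and Hsph1. Hspa1a fell from 5602, 6679 and 4992 CPM to 1904, 2191 and 1820.2 (-1.45 ± 0.20, adjusted p = 4.2e-05, edgeR), without overlap. Ppp1r15a fell from 476, 277 and 333 to 194, 193 and 206 (-0.77 ± 0.15), and was also lower with suffixes 7 to 9 (193, 164 and 187, -0.95 ± 0.15). With suffixes 10 to 12 it was 361, 400.4 and 309.9, while Dnajb1 (-1.05 ± 0.13) and Hsph1 (-0.90 ± 0.16) were the genes below suffixes 1 to 3. Immediate early genes summed to 12855 to 21081 with suffixes 1 to 3, 12305 to 13075 with 4 to 6, 11587 to 14271 with 7 to 9 and 18945 to 23960.2 with 10 to 12. Fibroblast-like cells had median UMIs per cell of 5406 to 5513, 5954 to 6568.5, 4606.5 to 5179.5 and 5382.5 to 6094.5 in the 4 runs.

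Without a test, all 3 libraries of suffixes 4 to 6 lay above all 3 of suffixes 1 to 3 for 16 of 36 members, where this held for 16.3% of the 18951 genes with a UMI in fibroblast-like cells. The 16 were ER members, 16 of 28, with 0 of 8 cytosolic. For 15 of them suffixes 4 to 6 were above the other 9 libraries as well, a count whose share over all genes was not taken. For 9 of 36 members suffixes 4 to 6 lay below suffixes 1 to 3, close to the share over all genes (22.2%). The 18951 genes include those with as little as 1 UMI, and the share among well-expressed genes was not taken. Genes of separate lists were counted by the edgeR test, where 16.6% of all genes were called higher and 17.9% lower. Of the other ER chaperones and foldases 14 of 23 were higher and 1 lower, led by Pdia5 and Rcn1. Of translocation and early secretion genes 14 of 32 were higher and 0 lower, led by Ssr2 and Lman1. Integrated stress response and regulator genes had 10 of 27 higher and 2 lower, led by Psat1 and Ddit4, and ER-associated degradation 2 of 18 and 1. Other cytosolic and mitochondrial chaperones had 3 of 29 higher and 3 lower, led by Cryab and Hspb8, and immediate early genes 1 of 20 and 6, led by Ier3 and Socs3.

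A sum over all fibroblast-like cells depends on which clusters they belong to, and the runs differed in this. The cluster led by Cxcl5 and Saa3, with 214 CPM of Fkbp11 over all libraries, held 40.4 to 42.8% of fibroblast-like cells with suffixes 4 to 6, 11.1 to 13.5% with 7 to 9 and at most 0.149% with 1 to 3 or 10 to 12. The cluster led by Il1rl1, with 220.1 of Fkbp11, held 7.03 to 14.6% with suffixes 4 to 6 and 12.7 to 24.1% with 7 to 9, and at most 0.74% elsewhere. The runs were therefore compared within single clusters, a choice made after seeing the data. In lining-like cells 16 of 34 members passed the F test (20% of genes), and 9 were higher and 2 lower with suffixes 4 to 6 than with 1 to 3 (14.5%, as 6.97% and 7.53%). Fkbp11 had 25.9, 46.1 and 73.7 CPM against 142, 186 and 124 there (1.67 ± 0.27), and Sec61b (1.47 ± 0.17) and Hspa5 (0.64 ± 0.14) rose as well. Hspa1a fell in lining-like cells from 4847, 6001 and 4586 to 1963, 2019 and 1627 (-1.51 ± 0.17), while their immediate early genes overlapped between those runs (9705 to 12996 and 8065 to 11572). The collagens of lining-like cells were higher without overlap, at 2112 to 2964 CPM with suffixes 1 to 3 and 8307 to 9698 with 4 to 6.

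In sublining-like cells, with as few as 18 cells in a library, 9 of 32 members passed the F test (4.53% of genes), and between suffixes 4 to 6 and 1 to 3 only Pdia6 was higher (0.89 ± 0.19) and only Hspa1a (-0.85 ± 0.18) and Hspa1b lower, where 0.221% of genes were called, 0.0886% higher and 0.133% lower. Fkbp11 was at 1.62 ± 0.38 without being called, and the collagen sums overlapped (12831 to 15019 CPM and 13205 to 17876). In the Inmt cluster, 1909 cells of neither subset, 13 of 33 members passed the F test (6.13%), and 8 were higher and 0 lower (2.47%, as 1.61% and 0.86%). These 8 were Hsp90ab1 (0.91), Hsp90aa1 (0.87), Hspa8 (0.83), Dnaja1 (0.78), Pdia6 (0.76), Atf4 (0.71), Manf (0.65) and Hspa5 (0.63), so cytosolic genes were among those that rose there. Fkbp11 (0.35 ± 0.21) and P4hb (0.50 ± 0.14) were not called in that cluster. Pdia6 was called higher in all 3 of these clusters and Fkbp11 in 1, the lining-like cells; whether the changes differed between clusters was not tested.

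Summed over their 2 clusters, vascular endothelial-like cells also had higher ER and lower heat shock genes with suffixes 4 to 6. These clusters were unequal in Hspa1a and Fkbp11, as given above. Their shares by run were not compared, and the part of their mix in the result was not tested. Of 31 members tested, 22 passed the F test (25.2% of genes), and 10 were higher and 7 lower with suffixes 4 to 6 than with 1 to 3 (20.3%, as 10.6% and 9.73%). Fkbp10 rose from between 30.2 and 40.5 CPM in the 3 libraries of suffixes 1 to 3 to 179.9, 167 and 172 (2.30 ± 0.22), without overlap. P4hb rose from 97.7, 111 and 83.1 to 296, 236 and 272 (1.47 ± 0.18), and Sdf2l1 (1.64) and Calr (1.11 ± 0.15) rose as well. Hspa1a fell from 13702, 15283 and 10701 to 4874, 4998 and 5738 (-1.33 ± 0.13), and Hsph1 by 1.08. Their immediate early genes were also lower, at 15461 to 16941 against 25919 to 27857. Their collagen sums were higher without overlap, at 2804 to 3755 CPM with suffixes 4 to 6 against 1176 to 2202 with 1 to 3, and the part of either in the result was not tested. Col1a1, an abundant fibroblast transcript, had at most 629.8 CPM in a vascular endothelial-like sum and at least 2757 in a fibroblast-like sum. In fibroblast-like sums it was 3714 to 4793 with suffixes 1 to 3 and 10631 to 13507 with 4 to 6. Whether fibroblast RNA carried over into the endothelial-like sums was not tested.

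**Figure D5:**
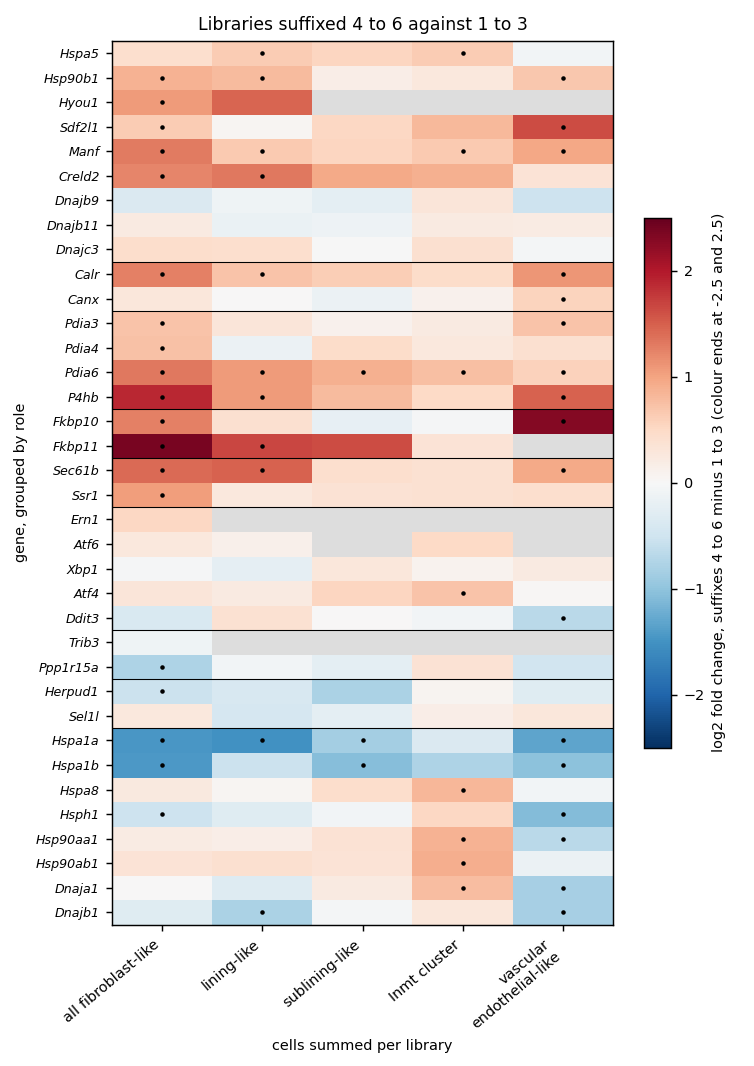
Log2 fold change of each member between libraries with suffixes 4 to 6 and 1 to 3 (red higher with 4 to 6, blue lower), in all fibroblast-like cells, 3 fibroblast clusters and vascular endothelial-like cells, with dots for called genes and grey for genes not tested. P4hb, Pdia6, Calr, Manf and Sec61b are red and Hspa1a and Hspa1b blue in all 5 columns, Fkbp10 is blue in sublining-like cells (-0.21) and Pdia4 in lining-like cells (-0.14), and in the Inmt cluster other cytosolic genes are red.

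Single fibroblast-like cells differed in how evenly they held these RNAs. Hspa5 had a UMI in 92.9% of the 10822 cells, Calr in 86.0% and Hspa1a in 88.3%, against 30.9% for Fkbp11, 8.58% for Atf6, 5.29% for Hyou1 and 3.68% for Ern1. The tenth of cells with most Dnajb1 held 51.2% of its UMIs and the tenth with most Hspa5 held 34.7% of theirs. For Hspa1a the highest single cell had 393 UMIs. Low-count members such as Trib3, Ern1 and Hyou1 are therefore described less precisely at this depth. Manf overlaps Rbm15b on the same strand, and they may share reads. Ddit3 overlaps Mars on the opposite strand, and these may share reads if strand was not used in counting.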

How the data were processed

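The deposited files are 1 matrix of raw UMI counts per library with its gene and barcode lists. Per the labels, the authors made these counts with Cell Ranger against the mouse mm10 build, and the values are not normalized. The equal median UMIs of every library point to an equalised depth, whose method is not given in the sources used here. Cells were kept with over 500 and under 5000 genes and over 500 and under 20000 UMIs. As the study's methods give them, the upper limits were 40000 UMIs in libraries labelled peak and 25000 or 30000 in those labelled resolving. The limit thus differed between stage labels and between libraries of 1 run of suffixes, and its part in those comparisons was not tested. Cells were clustered in scanpy 1.11.5 (2000 variable genes, 30 principal components, 20 neighbours, Leiden resolution 1, seed 1), leaving out the 36 members and every other gene list used here except collagens, and clusters were named from marker lists. Scrublet called 56 cells (0.279%), too few to be taken as working, so doublets were kept and an alternative removed the 6% of cells with the highest scores.

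UMIs were summed per library and type, with at least 10 cells per sum and 6 libraries per type, and tested in edgeR 4.0.16 (quasi-likelihood, TMM, filterByExpr, R 4.3.3), two-sided, with Benjamini-Hochberg adjustment over all genes tested. Comparisons of types and of lining with sublining had the library as a block, and stages and runs of suffixes had none. The tests were tried on simulated counts, in which the comparison of peak with rest did not recover the changed genes. Its lack of calls therefore cannot show that the stages were alike. In the other comparisons tried, the share of false calls was above the threshold on the adjusted p. Alternatives were RLE size factors, no filter on low counts, DESeq2 1.42.0, a mitochondrial limit of 10%, Leiden resolution 0.5, other blocks or terms and each library left out. CPM are UMIs of a gene scaled to 1000000 UMIs in the sum, and a ± is the standard error for a log2 fold change and the SD for a level. Positions are from GENCODE M21, in which 27645 of 27998 gene identifiers were found. The members and lists were chosen with earlier results of these data known. Named genes are the 36 members, the 2 genes of each list with the largest called change, and the genes that mark a cluster or type; Col1a1, Fos and the leading genes of clusters are named to describe them.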

Additional observations from a re-analysis of the deposited data

How the results depend on the processing

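Leaving out each library in turn gave 4 members called in osteoblast-like cells every time (lowest 4, highest 4), 1 to 3 in tenocyte-like, 11 to 17 in chondrocyte-like, 20 to 21 in vascular endothelial-like, 21 to 23 in lymphatic endothelial-like, 18 to 21 in perivascular-like, 11 to 13 in proliferating and 20 to 24 in muscle-like cells. It gave 4 to 7 for lining against sublining, 0 to 0 for each stage, 29 to 32 for the F test over runs, 18 to 19 for suffixes 4 to 6 against 1 to 3, 9 to 14 for 7 to 9 and 1 to 5 for 10 to 12. Tenocyte-like cells had 1 call without the libraries peak 1, rest 2, resolving 2 or resolving 3. Suffixes 10 to 12 had 1 call without peak 1 or resolved 3 and 5 without rest 1.

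The 2 calls in tenocyte-like cells became 1 with no filter on low counts, 1 in DESeq2, 4 at Leiden resolution 0.5 and 5 without the C1qtnf3 cluster. The 2 of suffixes 10 to 12 became 5 with no filter, 4 in DESeq2 and 1 with the stage label added. They became 1, 0, 4 and 1 in lining-like cells, sublining-like cells, the Inmt cluster and vascular endothelial-like cells. There 0.806%, 0.561%, 1.15% and 0.115% of all genes were called. Lining against sublining went from 5 to 8 without the library block and gave no value at resolution 0.5. In lining-like cells, sublining-like cells and the Inmt cluster the F test called 16, 9 and 13 of the members (20%, 4.53% and 6.13% of all genes). Suffixes 4 to 6 against 1 to 3 called 11, 3 and 8 there (14.5%, 0.221% and 2.47%). Suffixes 7 to 9 against 1 to 3 called 5, 2 and 1 (9.32%, 2.51% and 0.908%). These single clusters hold fewer cells, and any other cause was not tested.

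Some log2 fold changes of suffixes 4 to 6 against 1 to 3 turned direction within a cluster without passing the test. These were Pdia4 at -0.14 in lining-like cells, Fkbp10 at -0.21 in sublining-like cells and, in the Inmt cluster, Fkbp10 at -0.026, Herpud1 at 0.061, Ppp1r15a at 0.36 and Hsph1 at 0.52. For 7 to 9 against 1 to 3, Manf was -0.10 and Sel1l -0.033 in lining-like cells and Creld2 -0.019 in vascular endothelial-like cells. Of 3797 values of single members under alternatives, 3484 kept their direction and side of the threshold, 304 lost the call and 9 turned direction.

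With the replicate number of the labels as a block, 0 members were called for each stage, and likewise 0 with the run of suffixes as a block. Same-numbered libraries correlated with the rest library of that number at -0.53 to 0.66 in their deviations. Where both lay in 1 run of suffixes, the values were 0.56 (peak 1), 0.66 (peak 2) and 0.50 (resolving 1). Elsewhere only resolving 2 was positive (0.45), so the numbers do not pair the libraries throughout. Trib3, Ern1 and Hyou1 are limited by depth.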

Other observations

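Clusters that were left unnamed or had sums in too few libraries for a test are given here as levels with all libraries pooled. The 132 cells led by Tnnc2 and Acta1, genes of mature muscle fibres, had 109 CPM of Hspa5, and the 28 ER members summed to 1195. The 193 cells led by Fam159b and Chodl passed for 6 of 6 tenocyte markers but had none of them, and the muscle marker Chodl, among their 10 leading genes, so they were left unnamed. They had 2028 of Hspa5 and 8154 of Hspa1a. The 24 cells led by Sfrp5, Krt19 and Msln had the highest summed immediate early genes of the 26 clusters, at 35053, with 987 of Ppp1r15a and only 930.2 of Hspa1a. The 83 Schwann-like cells had 14237 of Hspa1a, and the 112 immune-like cells had summed immediate early genes of 4219. No replicate error can be given for these pooled levels, and doublets and free RNA were not tested for them.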
